A study of Xenopus laevis with 30 samples.

Results

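Animal cap explants of the frog Xenopus laevis that had received the same mRNAs varied in the levels of genes of ectodermal fates. The explants numbered 2 are described here against those numbered 1 and 3. Every embryo had received, by injection into 2-cell stages, mRNA of the BMP antagonist noggin and of the Wnt ligand wnt8. NWS embryos carried in addition a morpholino that targets the splicing factor Sf3b4, and NW embryos did not. Caps were cut at stage 8 to 9 and cultured for 8 h, and RNA was sequenced after ribosomal RNA had been removed (depleted libraries) and also with no such step (undepleted libraries). Of the 30 sequencing runs in the series, 10 belong to set 2 (NWS 2 and NW 2, 4 libraries over both preparations) and 20 to sets 1 and 3 (NWS 1, NWS 3, NW 1 and NW 3, 8 libraries). A set is the number in the run titles and nothing more: the labels do not say that same-numbered NW and NWS explants share a clutch, a day or a parent, so the origin of a set cannot be told apart from the handling of its libraries. Per the labels' protocols explants were homogenized one by one, and each group has 1 library of each number, so the p-values below measure the spread between libraries.

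The animal cap is the roof of the blastula, a sheet of cells that becomes epidermis when BMP signalling is left on. Blocking BMP with noggin turns it to neural tissue, and adding a Wnt signal shifts it to the border between neural plate and epidermis, where neural crest forms. Crest cells then turn on transcription factors in succession, with Snai2 and FoxD3 early and Sox10 and Twist1 in committed crest. The level of crest, neural plate and epidermal genes in such an explant therefore describes which of these fates its cells had entered, although in a bulk sample fewer cells of a type and less RNA per cell cannot be told apart.

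Set 2 stood apart in how few of its counts came from ordinary genes. LOC108705792 and ccdc50.L, an entry pair of high count in every library, held 88.3% of the counts of NWS 2 and 86.0% of NW 2 among depleted libraries, against 19.3% to 62.7% in sets 1 and 3. Among undepleted libraries the pair held 95.1% and 95.2%, against 48.8% to 87.8%. Total counts were 2722942 and 1153116 in NWS 2 and NW 2 with depletion, against 351902 to 3570364 in sets 1 and 3, and 4032226 and 4339788 without it, against 3499960 to 4273985. Outside the 5 entries that held over 0.5% of any library, 203123 counts remained for NWS 2 and 112762 for NW 2 with depletion, against 127172 to 2803732 in sets 1 and 3, and 87172 and 94882 without it, against 327925 to 2042925. With every library thinned to 87172 such counts, 8007 to 9123 entries were detected in the 4 set 2 libraries, against 10696 to 13111 in the other 8. NW 3 had the most such counts and the smallest pair share in both preparations. Levels below are CPM values on the effective library size of trimmed-mean normalisation (TMM), and 3 counts, taken as the detection floor of a library, equal 2.59 to 6.79 CPM in set 2. Thinning to that one depth also left out the 5 dominant entries. After it, 8 entries passed the test described next among depleted libraries, where 30 did at full depth. Without the 5 dominant entries but at full depth, 6 did. Among undepleted libraries 12 passed when thinned and 2 without the dominant entries, against 17. In a fit of both preparations together, 244 passed when thinned and 327 without the dominant entries, against 253. Beyond these fits the part of depth and of the pair in the differences below was not tested.

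**Figure D1:**
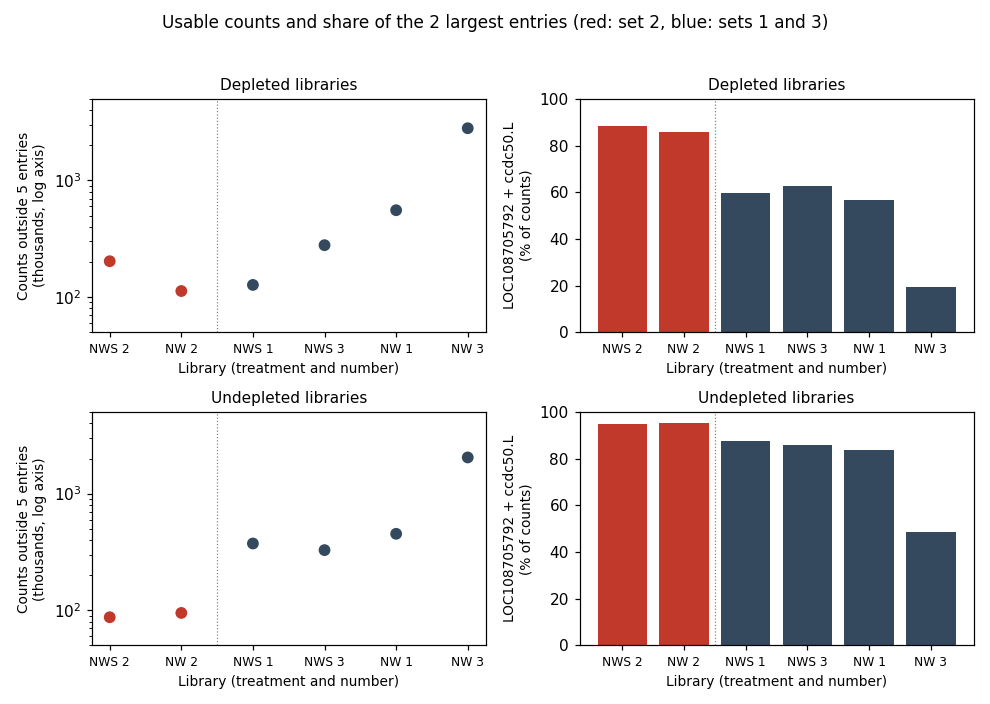
Counts outside the 5 dominant entries (left, log axis) and the percentage of counts in LOC108705792 and ccdc50.L (right) for each depleted (top) and undepleted (bottom) library. Set 2 (red) lies left of the dotted line, with pair shares of 86.0% to 95.2% and few remaining counts, and sets 1 and 3 (blue) lie to its right, with NW 3 the highest in remaining counts.

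Few single entries passed a test of set 2 against sets 1 and 3. The test was edgeR's quasi-likelihood test with treatment as a covariate and a Benjamini-Hochberg adjusted p under 0.05. In the depleted libraries 18 entries were higher in set 2 (0.191% of 9404 tested) and 12 lower (0.128%). In the undepleted libraries 10 were higher (0.106% of 9469) and 7 lower (0.0739%). The lower calls were the less stable in single preparations: without the dominant entries, 6 higher and 0 lower passed with depletion and 2 and 0 without it, and without NW 2 no undepleted entry passed. In a joint fit of all 12 libraries, with the preparation as a further covariate, 97 were higher (0.734% of 13224) and 156 lower (1.18%). Depleted and undepleted libraries of one name may come from the same RNA, so the p-values of this joint fit may be too small. With the preparations of a library summed before the test, 6 entries passed, all higher in set 2, and with their correlation (0.354) estimated in limma-voom, 31 passed, all higher. At most 6 and 31 of the 97 higher calls were thus kept. Which of the higher entries named below were among them is not reported here. Without NW 2 the joint fit called 12 entries and without NWS 2 it called 77. No entry passed the edgeR test of an interaction between set and treatment (0% of 15851, with 1344 at an unadjusted p under 0.05; DESeq2 called 21) or between set and preparation (0%, with 684 at an unadjusted p under 0.05; DESeq2 called 0).

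The median log2 fold change of set 2 over sets 1 and 3 was not 0 but -0.67 over all depleted and -0.87 over all undepleted entries tested. It varied with level. Level was ranked by mean CPM with depletion over the 7940 entries tested in both preparations. In the quartile of lowest level the median was -1.95 (depleted) and -1.68 (undepleted), and in the highest quartile it was 0.07 and -0.18. Thinned to one depth, the overall medians were -0.13 and -0.12. Values of gene lists are given beside the overall median, which is not matched to the level of a list.

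With the complement gene c3 counted in, the crest share among the 3 fates was lowest in set 2. The 95% intervals of NWS 2 overlapped those of some other libraries. The share of neural plate was mostly higher in set 2. Of all counts in the neural crest, neural plate and epidermis lists, crest entries took 41.1% in NWS 2 and 40.0% in NW 2 among depleted libraries, against 43.7% in NWS 1, 43.1% in NWS 3, 47.9% in NW 1 and 79.1% in NW 3. Without depletion the crest share was 41.3% in NWS 2 and 31.7% in NW 2, against 45.8%, 45.02%, 45.5% and 80.0% in NWS 1, NWS 3, NW 1 and NW 3. Both set 2 libraries thus lay below the other 4 in each preparation, but close to 3 of them, and NW 3 stood far above. This order includes c3. Without c3 the summed crest level with depletion was 590 CPM in NWS 2 and 1124 CPM in NW 2. It was 1751, 733, 2060 and 3071 CPM in NWS 1, NWS 3, NW 1 and NW 3. NW 2 then lay above NWS 3, also without depletion (239 against 220 CPM). Shares without c3 were not computed. The neural plate share was 40.4% in NWS 2 and 33.0% in NW 2 with depletion, against 13.2%, 34.0%, 12.01% and 15.4% in NWS 1, NWS 3, NW 1 and NW 3. Without depletion it was 42.3% and 38.5% in set 2, against 13.4%, 35.8%, 11.7% and 14.9%. Set 2 and NWS 3 were the neural-rich libraries, and set 2 lay above NWS 3 except for NW 2 with depletion. The epidermis share was 18.5% and 26.99% (depleted) and 16.3% and 29.9% (undepleted) in NWS 2 and NW 2, against 5.45% to 43.1% and 5.15% to 42.8% in sets 1 and 3, whose range held both. The counts behind a share numbered 985 to 2236 in set 2 and 2853 to 54416 in sets 1 and 3, and the 95% exact binomial interval of the NW 2 crest share without depletion, 28.8% to 34.7%, covers counting error only. The interval of NWS 2 with depletion, 39.1% to 43.2%, overlapped those of NWS 1 (41.8% to 45.5%) and NWS 3 (41.5% to 44.8%). Without depletion the interval of NWS 2, 38.22% to 44.47%, overlapped those of NWS 3 (43.4% to 46.6%) and, barely, NW 1 (44.46% to 46.60%). It lay below that of NWS 1 (44.75% to 46.89%). Overlap of intervals is not a test of a difference, and differences of share between single libraries were not tested.

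**Figure D2:**
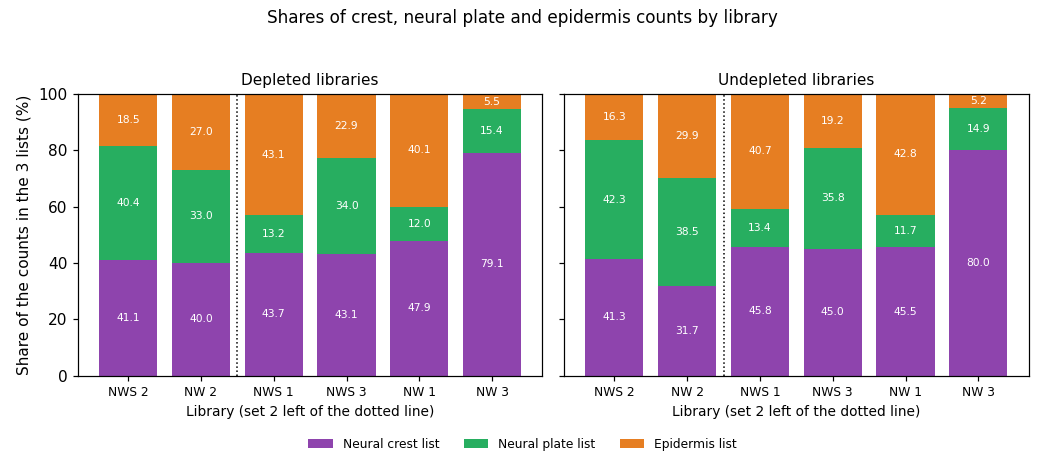
Percentage of the counts in the crest, neural plate and epidermis lists taken by each list, by library, with set 2 left of the dotted line in each panel. Set 2 had neural plate shares of 33.0% to 42.3% and crest shares of 31.7% to 41.3%, while NW 3 had crest shares of 79.1% and 80.0%. The crest list includes c3, without which the crest sums of set 2 overlapped those of the other libraries.

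Neural crest entries lay on balance lower in set 2. Their summed level was 1308 CPM in NWS 2 and 1240 CPM in NW 2 with depletion, against 2388, 1383, 2342 and 3745 CPM in NWS 1, NWS 3, NW 1 and NW 3. Without depletion it was 351 and 275 CPM in set 2, against 816, 432, 677 and 1281 CPM. Set 2 lay below the other 4 in both preparations, with NWS 3 nearest. Of 33 entries tested of 38 in the list, 31 had a fold change below 0 with depletion (median -1.47) and 32 without it (median -2.23), against the overall medians of -0.67 and -0.87. Sox8.S and sox10.S passed in each single preparation, 2 of 33 each time, where 0.128% (depleted) and 0.0739% (undepleted) of all entries passed as lower. In the joint fit 11 of 33 passed, all lower, where 1.18% of all entries passed as lower. These were sox8.S, sox8.L, sox10.S, sox10.L, ets1.S, ets1.L, id3.S, id3.L, twist1.L, snai1.S and snai2.L. With the preparations summed or their correlation estimated, none of these 11 passed, and without the dominant entries neither sox8.S nor sox10.S passed in a single preparation. NW 2 was below both NW 1 and NW 3 in both preparations for 22 of 33 crest entries, where 38.5% of all 7940 entries tested in both preparations were. NWS 2 was below both NWS 1 and NWS 3 for 9 of 33, where 22.5% of all entries were.

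Sox10.S, one of a pair of homeologs of the gene for the committed-crest factor Sox10, had 0 CPM in NWS 2 and 6.79 CPM in NW 2 with depletion, against 61.3, 0, 99.2 and 174 CPM in NWS 1, NWS 3, NW 1 and NW 3. Without depletion it had 0 and 0.868 CPM in set 2, against 13.7, 0, 44.6 and 56.1 CPM. Its log2 fold change was -4.92 ± 1.19 (SE) with depletion (edgeR adjusted p = 0.034) and -6.04 ± 1.41 without it (edgeR adjusted p = 0.047), and the set 2 libraries had at most 3 counts of it. DESeq2 did not call sox10.S in either preparation (DESeq2 adjusted p = 0.27 and 0.25). The groups overlapped because NWS 3 had no sox10.S count, and the other 3 libraries of sets 1 and 3 were high. Sox8.S, for the related SoxE factor Sox8, was likewise low in set 2 and in NWS 3, at 0 and 6.79 CPM in NWS 2 and NW 2 with depletion, against 42.2, 2.77, 74.8 and 153 CPM, and 0 CPM in both without it, against 17.7, 0, 16.6 and 51.2 CPM. The edgeR adjusted p of sox8.S was 0.049 with depletion and 0.045 without it. Neither DESeq2 (adjusted p = 0.053 and 0.33) nor limma-voom (adjusted p = 0.62 and 0.95) called sox8.S in either preparation. Twist1.L, a mesenchymal crest factor, was also low in set 2 and in NWS 3 and passed in the joint fit (log2 fold change -4.58 ± 1.01, edgeR adjusted p = 0.012), with 0 and 4.52 CPM in set 2 with depletion, against 53.7, 0.924, 66.6 and 37.2 CPM.

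In ets1.S and snai1.S, NWS 3 lay above set 2. Ets1.S, for a factor of migrating cranial crest, had 4.26 CPM in NWS 2 and 31.7 CPM in NW 2 with depletion, against 32.6, 45.3, 120 and 92.0 CPM in NWS 1, NWS 3, NW 1 and NW 3. Without depletion it had 3.45 and 4.34 CPM, against 27.5, 16.2, 28.9 and 32.5 CPM, and the groups did not overlap in either preparation (log2 fold change -2.52 ± 0.52 in the joint fit, edgeR adjusted p = 0.0081). Snai1.S, for a Snail repressor that acts in crest formation, also lay below the other 4 in both preparations, at 19.9 and 20.4 CPM against 29.6 to 99.0 CPM with depletion. Both set 2 libraries were so placed for 3 of 33 crest entries tested and for 6.89% of all entries. Both homeologs of id3, an inhibitor of helix-loop-helix factors, passed in the joint fit, at log2 fold changes of -2.22 (id3.S) and -1.75 (id3.L). They were lowest in NWS 2, while id3.L in NW 2 with depletion, at 149 CPM, was close to the 151 CPM of NW 1. Set 2 overlapped the others for both id3 entries in both preparations. With depletion the lowest of the others was at 47.9 CPM (id3.L) and 21.1 CPM (id3.S). Of the genes of this list, twist1.L, ets1.S, snai1.S and foxd3.L were singled out after their values were seen.

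Foxd3.L, for an early crest specifier, had a log2 fold change of -2.19 with depletion and -1.47 without it and did not pass in any fit, and it was low in NWS 3 (2.77 CPM) as in NWS 2 (4.26 CPM) among depleted libraries. The entries of highest level in the list, c3.L and tfap2c.L (LOC108700915), did not pass either. C3.L, for a complement component with a role in crest migration in this frog, had 718 CPM in NWS 2 and 115 CPM in NW 2, against 636, 649, 282 and 674 CPM, and so the 2 libraries of set 2 differed more than the means of the sets. Without c3 the summed crest level was 590 and 1124 CPM in NWS 2 and NW 2, against 733 to 3071 CPM, and the groups overlapped. Within a treatment each was below its own libraries: NWS 2 lay below NWS 3 at 733 CPM, and NW 2 below NW 1 at 2060 CPM.

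Neural plate entries were on balance higher in set 2, but no single one passed. Their summed level was 1284 CPM in NWS 2 and 1025 CPM in NW 2 with depletion, against 724, 1089, 588 and 731 CPM in NWS 1, NWS 3, NW 1 and NW 3. Without depletion it was 360 and 334 CPM, against 239, 343, 173 and 238 CPM. Each set 2 library lay above both other libraries of its own treatment in both preparations, and NWS 3 overlapped set 2. Of 23 entries tested with depletion 16 were above 0 (median 0.43), and of 26 tested without it 16 were above 0 (median 0.33), with 53 entries in the list. With no filter on low counts these medians were below 0, at -0.11 and -0.33. NW 2 lay above both NW 1 and NW 3 in both preparations for 11 of 22 entries, where 10.7% of all entries did, and NWS 2 above both NWS 1 and NWS 3 for 6 of 22, where 11.8% of all entries did.

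Sox3.S, for a SoxB1 factor of neural progenitors, had 154 CPM in NWS 2 and 106 CPM in NW 2 with depletion, against 69.0, 132, 18.3 and 39.9 CPM in NWS 1, NWS 3, NW 1 and NW 3. Its log2 fold change was 1.27 ± 0.67 with depletion and 1.29 ± 0.62 without it (edgeR adjusted p = 0.43 and 0.39), with NWS 3 again inside the range of set 2. The other entries of highest level in the list changed less. Their log2 fold changes with and without depletion were 0.48 and -0.39 (zeb2.L, LOC108701318), 0.43 and 0.34 (sox11.S) and 0.31 and 1.03 (zeb2.S). In the joint fit 18 of 30 neural plate entries tested were above 0 and 12 below. Irx1.S, for an Iroquois factor of the early neural plate, was the 1 neural plate entry for which both set 2 libraries lay above the other 4 in both preparations, a place held by 2.43% of all entries, at 62.5 and 27.1 CPM against 13.9 to 21.1 CPM with depletion. Egr2.L, for the hindbrain factor Krox20, had 39.8 and 118 CPM in NWS 2 and NW 2, against 0, 89.6, 40.2 and 11.1 CPM. Its groups overlapped with depletion. Irx1.S and egr2.L were singled out after their values were seen.

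The clearest neural difference was in myt1, which codes for a zinc-finger factor that promotes neuronal differentiation in this frog. Myt1.S had 243 CPM in NWS 2 and 305 CPM in NW 2 with depletion, against 30.7, 13.9, 51.9 and 40.5 CPM in NWS 1, NWS 3, NW 1 and NW 3. Without depletion it had 50.9 and 67.7 CPM, against 18.3, 9.88, 21.9 and 9.65 CPM. Set 2 lay above all others in both preparations, NWS 3 included, a place held by 2.43% of all entries. The log2 fold change was 3.11 ± 0.63 with depletion (edgeR adjusted p = 0.0040), 1.98 ± 0.59 without it (edgeR adjusted p = 0.18) and 2.47 ± 0.40 in the joint fit (edgeR adjusted p = 0.00040). Myt1.L passed in the joint fit (1.72 ± 0.43, edgeR adjusted p = 0.025), with 86.7 and 176 CPM in set 2 with depletion, against 26.8, 29.6, 29.5 and 59.4 CPM, but overlapped without depletion. Whether these joint calls were kept with the preparations summed or their correlation estimated is not reported here. The depleted myt1.S call was lost without NWS 2 (edgeR adjusted p = 0.29) or without NW 2 (edgeR adjusted p = 0.12), each of which leaves 1 library in set 2.

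Neuronal differentiation entries summed to 523 and 613 CPM in NWS 2 and NW 2 with depletion, against 109 to 325 CPM, and to 110 and 228 CPM without it, against 63.2 to 90.5 CPM. Set 2 lay above all others in both preparations, yet the 2 myt1 entries were the members that passed: with 31 entries in the list, 1 of 9 tested passed with depletion, 0 of 11 without it and 2 of 13 in the joint fit. Of all entries, 0.191%, 0.106% and 0.734% passed as higher in these fits, in the same order. Without the myt1 entries, a sum chosen after seeing the data, the list came to 193 and 131 CPM in NWS 2 and NW 2 with depletion, against 51.7 to 225 CPM, and to 39.7 and 65.1 CPM without it, against 24.8 to 63.9 CPM, so the groups overlapped in both preparations. Elavl3.L, for an RNA-binding protein of early neurons, did not pass, at 37.0 and 86.0 CPM in set 2 with depletion, against 11.5, 16.6, 19.3 and 52.1 CPM. Tubb2b.L, for a neuronal tubulin, had 28.4 and 2.26 CPM, against 3.83, 9.24, 28.5 and 55.1 CPM. It was high in NWS 2 and low in NW 2, so members of the list did not share one order of libraries.

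**Figure D3:**
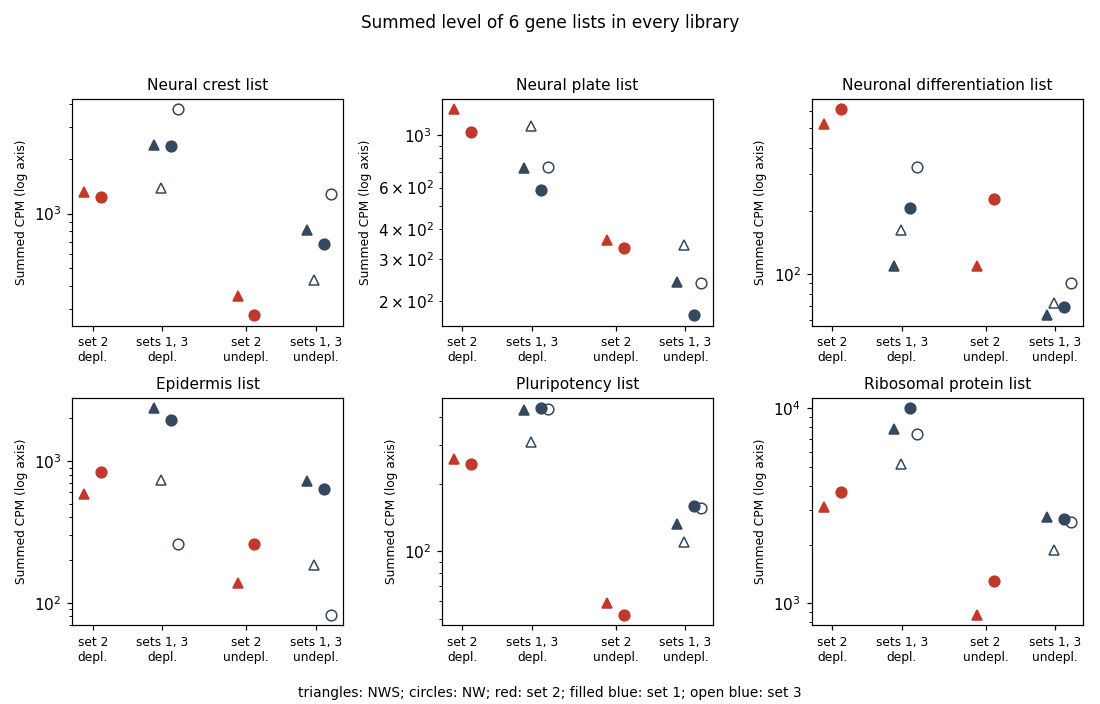
Summed CPM (log axis) of 6 gene lists in each library, with set 2 (red) left of sets 1 and 3 (blue) in each preparation, triangles for NWS and circles for NW. Crest, pluripotency and ribosomal protein sums of set 2 lay below, and neuronal sums above, those of the other 4 libraries in both preparations. Epidermis sums overlapped. Neuronal sums without myt1 and crest sums without c3 overlapped in both preparations, and pluripotency sums without tfap2a overlapped with depletion.

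Epidermal entries divided sets 1 and 3 more than they set off set 2. The summed level was 587 CPM in NWS 2 and 837 CPM in NW 2 with depletion, against 2355 and 1964 CPM in NWS 1 and NW 1 and 734 and 258 CPM in NWS 3 and NW 3. Without depletion it was 139 and 260 CPM, against 726 and 637 CPM in set 1 and 184 and 82.5 CPM in set 3. Set 1 was epidermis-rich. NWS 2 lay near NWS 3 and below it, whereas NW 2 lay between NW 3 and NW 1 in both preparations. No epidermal entry passed in any fit, of 36, 38 and 43 tested of 68 in the list. The medians of -1.59 (depleted) and -1.96 (undepleted) turned to 1.00 and 0.67 without set 1. Krt70.S (krt.S), a keratin gene, had 88.1 and 158 CPM in NWS 2 and NW 2 with depletion, against 481 and 313 CPM in NWS 1 and NW 1 and 46.2 and 23.1 CPM in NWS 3 and NW 3. Tp63.L, which codes for the basal epidermal factor p63 and was singled out after its values were seen, had 18.5 and 43.0 CPM in set 2, against 76.7 CPM in NWS 1, 0 CPM in NWS 3, 14.8 CPM in NW 1 and 14.2 CPM in NW 3.

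Entries of the neural plate border, the zone where crest arises, held no call. Of 17 tested in each preparation none passed (medians 0.10 and -0.54, 23 entries in the list), and the sums overlapped in both. Pax3.L, a border specifier chosen after its values were seen, had 65.4 and 40.7 CPM in NWS 2 and NW 2 with depletion, against 46.0, 44.3, 43.7 and 21.5 CPM. Zic1.L, another, had 114 and 92.7 CPM, against 84.3, 126, 21.9 and 101 CPM. Tfap2a, which acts at the border, in crest and in epidermis, was the exception in size, with log2 fold changes of -2.10 (tfap2a.L) and -1.84 (tfap2a.S) in the joint fit and edgeR adjusted p of 0.059 and 0.092, and it too was low in NWS 3, at 11.1 and 4.62 CPM with depletion.

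Among Wnt target and posterior entries none of 21 tested in each preparation passed, and the medians were near 0 (0.08 and 0.09). Both set 2 libraries lay above both others of their treatment in summed level in each preparation, while every NWS library lay above every NW library, with 1103 CPM in NWS 2 and 482 CPM in NW 2 with depletion, against 929 and 917 CPM in NWS 1 and NWS 3 and 351 and 450 CPM in NW 1 and NW 3. Axin2.S, a direct target of Wnt signalling chosen after its values were seen, was above the other 4 in both preparations (68.2 and 38.5 CPM in set 2 with depletion, against 6.61 to 29.6 CPM) and did not pass, with an edgeR adjusted p of 0.061 in the joint fit. Both set 2 libraries were so placed for 1 of 23 entries of this list and for 2.43% of all entries. The homeolog axin2.L (xarp.L), of higher level, had a set 2 mean of 207 CPM with depletion, inside the 57.0 to 322 CPM of the others. Without depletion the axin2.L mean of set 2 was 64.0 CPM, inside 11.4 to 113 CPM.

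**Figure D4:**
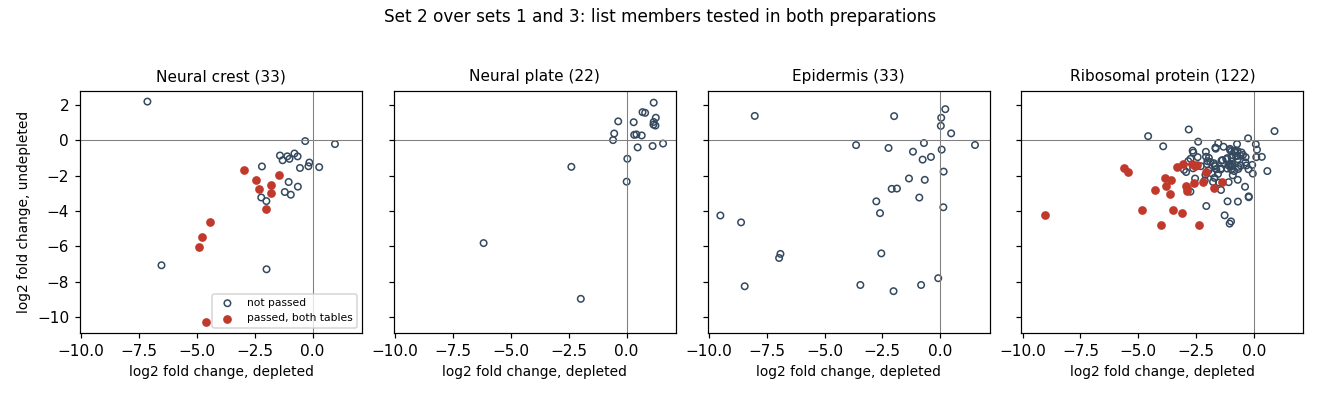
Log2 fold change of set 2 over sets 1 and 3 in depleted (x axis) and undepleted (y axis) libraries for entries tested in both, by list, with entries that passed in the joint fit of both tables in red. Crest and ribosomal protein entries lay mostly below 0 on both axes, with 11 and 26 red entries, and no neural plate or epidermis entry passed. Of all entries tested in the joint fit, 1.18% passed as lower.

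Ribosomal protein entries were lower in set 2 as a list. Of 122 tested with depletion 116 were below 0 (median -1.53), and of 123 tested without it 119 were (median -1.46). Few passed singly, 2 and 3, but 26 of 124 passed in the joint fit, all lower, of 130 entries in the list, and none of these with the preparations summed or their correlation estimated. Of all entries, 0.128% (depleted), 0.0739% (undepleted) and 1.18% (joint fit) passed as lower. Both set 2 libraries were below the other 4 in both preparations for 44 entries of the list, where 6.89% of all entries were so placed. The summed level was 3123 CPM in NWS 2 and 3721 CPM in NW 2 with depletion, against 7839, 5199, 10004 and 7374 CPM in NWS 1, NWS 3, NW 1 and NW 3. Without depletion it was 874 and 1302 CPM, against 2774, 1865, 2719 and 2621 CPM. Rps9, for a protein of the small subunit, passed in all 3 fits, with 1.42 and 9.05 CPM in set 2 with depletion, against 46.0, 135, 43.2 and 85.4 CPM (log2 fold change -4.02 ± 1.02, edgeR adjusted p = 0.049). Without depletion it had 1.73 and 0 CPM, below the other 4, of which NWS 3 was highest at 34.0 CPM (-4.77 ± 1.07, edgeR adjusted p = 0.037). The single-preparation calls of rps9 were lost without the dominant entries (edgeR adjusted p = 0.22 with depletion and 0.19 without it). They were also lost with upper-quartile scaling (edgeR adjusted p = 0.055 and 0.057) and in limma-voom (limma-voom adjusted p = 0.42 and 0.83). Reads of ribosomal protein genes can be split or lost among copies and pseudogenes, so levels of single entries are uncertain.

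Ribosomal protein entries are also short. Lengths recovered from the deposited counts and FPKM values had a median of 874 bases for the 124 tested, against 3297 bases for all 13224. The fold change of set 2 varied with length over the 7940 entries tested in both preparations. In the shortest quartile (up to 2353 bases) the median was -0.94 with depletion and -1.18 without it, and in the longest (from 5678 bases) it was -0.19 and -0.43. Within the quartile of highest level and without ribosomal protein entries, entries of up to 2748 bases had medians of -0.19 and -0.44, and longer ones -0.14 to 0.32. The ribosomal protein medians lay below these values, and the part of length in them was not tested. Entries higher in set 2 in the joint fit had a median of 4104 bases, and those lower 3822 bases without ribosomal protein entries.

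Other lists held few passing entries. Pluripotency entries, for the factors of the uncommitted cap, summed to 260 and 247 CPM in NWS 2 and NW 2 with depletion, against 310 to 438 CPM, and to 58.7 and 52.1 CPM without it, against 111 to 159 CPM. They lay below in both preparations, but none of 11 tested in each passed. Without the tfap2a entries, a sum also chosen after seeing the data, they overlapped with depletion, at 196 and 219 CPM in set 2 against 138 to 295 CPM, and lay below without it, at 54.4 and 22.6 CPM against 56.3 to 98.1 CPM. Splicing entries were below 0 in 28 of 37 and 32 of 39 tested, with medians (-0.70 and -0.68) near those of all entries, and none passed. Cell cycle entries gave medians of -0.36 and -0.68, nearer 0 than the overall medians, and none of 40 and 41 passed. The 4 splicing and 4 cell cycle entries of highest level lay in the highest quartile of level. All entries of that quartile had medians of 0.07 and -0.18, so the overall medians are not matched to the level of these entries. Of heat shock and immediate early entries nr4a1, an orphan nuclear receptor gene, was lower with depletion, and nr4a1, fos.S and jun.L were lower in the joint fit, 3 of 34. These 3 were high in NWS 3 (144, 64.7 and 148 CPM with depletion), and 2 of the 3 in NWS 1 (46.0 CPM of nr4a1 and 32.6 CPM of fos.S), while NW 1 and NW 3 had 0.870 to 4.07 CPM. Those NW 1 and NW 3 values lay below the 4.26 and 6.79 CPM that the floor equals in NWS 2 and NW 2 with depletion, so a lower level in NW 2 could not be seen. The high values were thus those of NWS libraries. In the p53 and apoptosis list mdm2.L passed in the joint fit, lower, 1 of 17, and in the multiciliated cell list dnah5.S, lower, 1 of 13. None of these 5 lower calls of the joint fit, where 1.18% of all entries passed as lower, passed with the preparations summed or their correlation estimated. No entry passed in any fit among the BMP target (5 and 6 tested), Hox (9 and 7), keratin (14 and 17), maternal and oocyte (5 and 4), ionocyte and secretory cell (2 and 2) and placode and cement gland (3 and 3) lists, where the pairs count depleted and undepleted libraries.

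Markers of other germ layers were low in all libraries. Mesoderm entries summed to 52.6 and 49.8 CPM in NWS 2 and NW 2 with depletion, against 18.7 to 125 CPM, and in set 2 these were counts of 1 entry, chrd.L, for the BMP antagonist chordin. Chrd.L by itself had 4.62 to 29.0 CPM in sets 1 and 3 with depletion, below both set 2 libraries. Without depletion the groups overlapped for chrd.L, and it did not pass in any fit. Endoderm entries summed to 0 and 9.05 CPM, against 2.54 to 26.8 CPM, and blood and muscle entries to 0 and 4.52 CPM, against 3.83 to 51.4 CPM, with NW 1 the highest in the last. Entries of the injected and targeted genes did not pass. Nog.L had 7.11 and 0 CPM in NWS 2 and NW 2 with depletion, against 13.4, 62.8, 11.2 and 4.87 CPM, and wnt8a.L had 4.26 and 2.26 CPM, against 5.75, 31.4, 0.509 and 1.91 CPM. The sources used here do not say whether these entries count the injected mRNA. Sf3b4.L had 29.9 and 22.6 CPM in set 2, against 26.8, 3.70, 11.2 and 20.4 CPM, and a morpholino need not lower the RNA it targets.

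Most of the entries that passed as higher in every fit have no gene name. Of the 4 higher in all 3 fits, fam173a.L, also named antkmt.L, for a lysine methyltransferase of mitochondria, had 173 and 206 CPM in NWS 2 and NW 2 with depletion, against 3.83, 22.2, 2.03 and 0.696 CPM in NWS 1, NWS 3, NW 1 and NW 3. Without depletion it had 94.9 and 99.9 CPM, against 5.67, 7.097, 1.60 and 0.148 CPM. Its log2 fold changes were 5.74 ± 0.85 and 5.63 ± 0.76 (edgeR adjusted p = 6.8e-06 and 1.1e-05). Both set 2 libraries were alike, and the next library, NWS 3, was at 22.2 and 7.097 CPM. Without NW 2 the calls of fam173a.L were lost (edgeR adjusted p = 0.16 and 0.68).

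Xelaev18029838m, an entry with no name in the gene table used, had 1792 and 1724 CPM in NWS 2 and NW 2 with depletion, against 211, 38.8, 134 and 10.2 CPM in NWS 1, NWS 3, NW 1 and NW 3, and 2131 and 3398 CPM without it, against 22.4 to 426 CPM. LOC108710739 had 888 and 778 CPM with depletion, against 207, 45.3, 52.4 and 9.83 CPM. These 2 entries had their lowest level in NW 3, the library with the smallest share of LOC108705792 and ccdc50.L, and their relation to that pair was not tested. LOC108698716 had 911 and 565 CPM, against 82.4, 90.5, 40.7 and 128 CPM, and was not lowest in NW 3. The undepleted calls of Xelaev18029838m, LOC108710739 and LOC108698716 were lost without the dominant entries (edgeR adjusted p = 0.091, 0.19 and 0.10). They were also lost at a mean count of at least 30 (edgeR adjusted p = 0.15, 0.17 and 0.076).

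The dominant entries themselves were higher. LOC108705792 (log2 fold change 3.08, edgeR adjusted p = 0.0025), ccdc50.L (3.18, edgeR adjusted p = 0.00075) and Xelaev18003734m (2.64, edgeR adjusted p = 0.0086) passed with depletion, but not without it (2.98, 2.73 and 2.79, in the same order; edgeR adjusted p = 0.35, 0.35 and 0.092). LOC108705792, ccdc50.L and Xelaev18003734m all passed in the joint fit (edgeR adjusted p = 1.3e-05, 1.1e-05 and 0.00013).

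A pair of related genes for stress and autophagy proteins passed as higher in the joint fit (edgeR adjusted p = 0.00045 for tp53inp1.S and 0.00040 for tp53inp2.S). Tp53inp1.S, for a p53-inducible stress protein, had 86.7 and 33.9 CPM in NWS 2 and NW 2 with depletion, against 21.1, 3.70, 5.596 and 10.4 CPM. Without depletion it had 26.7 and 44.3 CPM, against 2.94, 2.03, 3.74 and 3.55 CPM (log2 fold change 3.51 ± 0.68 without depletion, edgeR adjusted p = 0.0088). Tp53inp2.S, for an autophagy regulator, had 318 and 106 CPM with depletion, against 42.2, 8.31, 11.2 and 28.3 CPM (3.09 ± 0.69 with depletion, edgeR adjusted p = 0.014). Set 2 was above the others for both genes in both preparations, as for 2.43% of all entries, while mdm2.L, a p53 target, lay below them. Tp53inp1.S did not pass with depletion (edgeR adjusted p = 0.27), nor tp53inp2.S without it (edgeR adjusted p = 0.058). Their single-preparation calls were lost without the dominant entries (edgeR adjusted p = 0.061 for tp53inp1.S and 0.14 for tp53inp2.S). They were also lost in limma-voom (limma-voom adjusted p = 0.086 and 0.051). Gli2.S, for a factor of hedgehog signalling, passed in the joint fit (2.52 ± 0.57, edgeR adjusted p = 0.014), with 28.4 and 65.6 CPM in set 2 with depletion, against 15.3, 7.39, 3.56 and 10.9 CPM. It passed in neither single preparation (edgeR adjusted p = 0.34 with depletion and 0.12 without it).

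Lower named entries outside the lists were of low level. Sik1.S, for a salt-inducible kinase, had no count in any set 2 library, against 42.2, 189, 3.56 and 0.0870 CPM in NWS 1, NWS 3, NW 1 and NW 3 with depletion. NW 1 and NW 3 were themselves below the 4.26 and 6.79 CPM that the floor equals in NWS 2 and NW 2, so the high values were again those of NWS libraries. Sub1.L, for a transcription coactivator, had 9.95 and 0 CPM, against 76.7, 54.5, 38.7 and 61.0 CPM. It passed in the joint fit (edgeR adjusted p = 0.0084), and set 2 lay below the others in both preparations, as for 6.89% of all entries. Neither sik1.S nor sub1.L passed with the preparations summed or their correlation estimated.

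**Figure D5:**
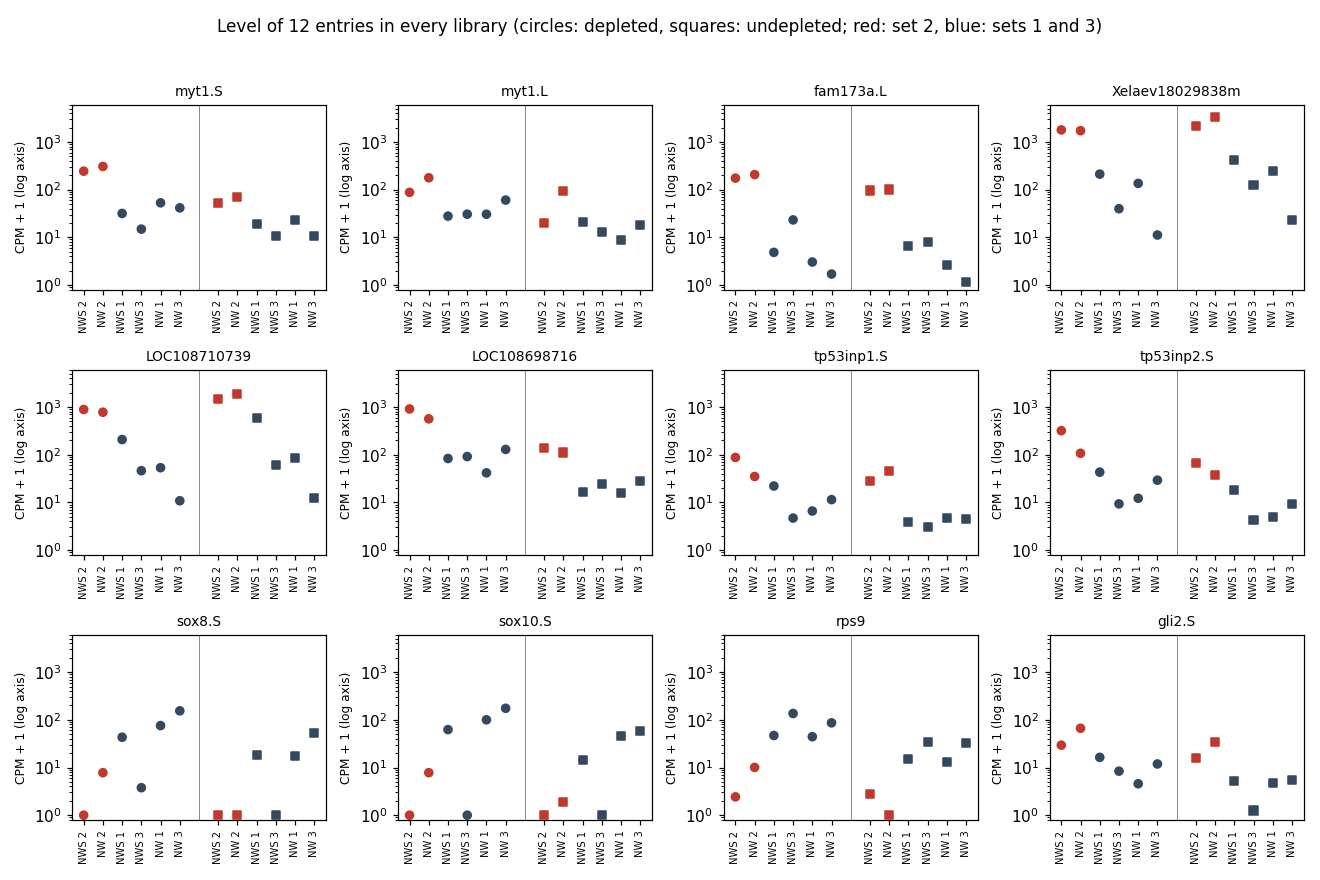
CPM plus 1 (log axis) of 12 entries in each library, depleted as circles and undepleted as squares, with set 2 in red left of sets 1 and 3 in blue. Myt1.S, fam173a.L, Xelaev18029838m, LOC108710739 and LOC108698716 lay above the other 4 libraries in set 2, whereas sox8.S and sox10.S were low in set 2 and in NWS 3.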

How the data were processed

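The authors deposited raw counts per annotated entry and FPKM values, in 1 table of each kind per preparation, for 49109 entries. The tools listed in the submitters' processing notes are STAR, featureCounts, bcl2fastq and DESeq2. Versions, genome build, annotation and strand setting were not given in the sources used here, so a gene and an antisense partner cannot be told apart. The deposited counts were used as they stand, with the 3 lanes of a depleted library and the 2 lanes of an undepleted library summed. The FPKM values the authors deposited served to recover entry lengths and entered no test. Lengths from both tables differed by a median of 0.0526% over 5823 entries.

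Libraries were grouped by the number in the run titles. In the undepleted NWS runs the source names disagree with the titles, giving 2 replicates and splitting library 2 over both, and the titles were used. Current symbols came from the RefSeq table of Xenopus_laevis_v10.1: 25709 entries already carried one and 4183 were given another.

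Tests were run in R 4.3.3 with edgeR 4.0.16 (TMM, filterByExpr at a minimum count of 10, quasi-likelihood test, Benjamini-Hochberg adjusted p under 0.05), with treatment as a covariate and, over both tables, preparation. The procedure was run on simulated counts, drawn independently for each library and with less spread than these data. That run cannot show whether the p-values of the joint fit are too small. DESeq2 1.42.0, limma 3.58.1, other scalings and filters, thinning and the omission of libraries were the alternatives. Intervals are exact (Clopper-Pearson) and, like the floor of 3 counts, cover counting error only.

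The comparison and the gene lists were chosen with earlier results of these data known. Entries named are the injected or targeted genes, up to 12 per direction that passed in every fit, or in the joint fit of both tables where fewer than 5 did, at a mean of at least 10 CPM with set 2 outside the range of the others, and per list the 4 members of highest level and those passing in both preparations. Entries outside this rule are said to be so where they are named, except the members listed to spell out a count of calls. Some entries that meet the rule are not reported here.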

Additional observations from a re-analysis of the deposited data

Results flagged for a closer look

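Among the 4 libraries of sets 1 and 3, 14 of 96 values had 1 library far from the other 3 by Dixon's test, which chance does for about 1 group in 20. Most of them were of NW 3 or NWS 3. NW 3 had 2803732 counts outside the dominant entries with depletion, where the next library had 555883, and 2042925 without it, where the next had 452462. The share of LOC108705792 and ccdc50.L in NW 3 was 19.3% and 48.8%, and the next lowest shares were 56.8% and 83.9%. LOC108705792 had 40754 CPM in NW 3 with depletion. The crest share of NW 3 was 79.1% with depletion and 79.99% without it, and the next shares were 47.9% and 45.8%.

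The neural plate share of NWS 3 was 34.0% with depletion and 35.8% without it, and the next shares were 15.4% and 14.9%. NWS 3 had the lowest pluripotency sum of these 4 with depletion (310 CPM, next 429 CPM), the lowest ribosomal protein sum without it (1865 CPM, next 2621 CPM) and the highest fam173a.L level with depletion (22.2 CPM, next 3.83 CPM). Rpl8.S, a ribosomal protein entry, was at 91.1 CPM in NW 1 with depletion, where the next library had 36.4 CPM. LOC108710739 was at 589.6 CPM in NWS 1 without depletion, where the next had 83.6 CPM.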

How the results depend on the processing

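No paired analysis was possible because the library number is itself what is compared. Entries passing with depletion numbered 30 as reported. They numbered 6 at a mean count of at least 30, without the dominant entries, and with totals outside those entries in place of TMM, an alternative chosen after seeing the data. They numbered 75 with DESeq2, 16 with limma-voom and with homeologs summed, 8 at one depth, 7 with no treatment term, 13 and 48 at thresholds of 0.01 and 0.1, and 14 without set 1. Entries passing without depletion numbered 17 as reported, 26 with DESeq2's size factors in edgeR, 38 with no filter and at a threshold of 0.1, and 2 at a mean count of at least 30 and without the dominant entries. They numbered 68 with DESeq2, 4 with limma-voom and with the totals in place of TMM, 7 with homeologs summed, 1 with no treatment term, 6 at 0.01, 10 without set 1 and 96 without set 3. In the fit of both preparations 253 passed as reported, 410 with no filter, 892 with DESeq2, 130 with limma-voom, 59 and 694 at 0.01 and 0.1, 491 without set 1, 507 without set 3, 31 with correlated preparations and 6 with preparations summed. Leaving out 1 library of sets 1 and 3 gave 24 (NWS 1) to 46 (NWS 3) with depletion and 21 (NW 1) to 36 (NWS 1) without it. Leaving out 1 of set 2 leaves 1 library in that set within a preparation. Over both preparations, leaving out both libraries of 1 name gave 12 (NW 2) to 289 (NWS 1). The treatment interaction gave 10 with no filter and 21 with DESeq2, and the preparation interaction gave 1 with no filter. The cause of these changes was not tested, apart from the thresholds and from fits with fewer libraries.

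The crest median stayed below 0 under every alternative run. Without depletion it was -1.37 without set 1. The neural plate median was -0.11 (depleted) and -0.33 (undepleted) with no filter, 0.96 and 1.15 without set 3, and, without 1 library, -0.23 (NW 2) to 0.78 (NWS 3) among undepleted libraries. The epidermis median was -0.021 with limma-voom (depleted) and 1.00 and 0.67 without set 1. Without 1 library it was -2.90 to -0.020 with depletion and -4.62 to -0.19 without it. Of 3400 log2 fold changes of named entries under an alternative, 166 lost their call, 60 gained one and 235 had the other sign, none of those a called value. Depth limits what low levels can show: a floor of 3 counts equals 2.59 to 6.79 CPM in set 2 and 0.111 to 5.75 CPM in sets 1 and 3, where NWS 1 with depletion (5.75 CPM) was shallower than NWS 2 (4.26 CPM).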
